A study of Rattus norvegicus with 24 samples.

Results

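Klk1, Spt1 and Smr3b are 3 rat genes best known from secretory glands, followed here in 2 muscles over 3 ages. They were picked by gene symbol in the platform annotation, which names 4736 genes in all and gives these 3 genes 4 of the 8740 probe sets that are not controls: 2 for Klk1 and 1 each for Spt1 and Smr3b. The choice was made with their levels on these arrays known, so the levels of the 3 genes are described and carry no test.

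One muscle was extraocular (EOM), the group that turns the eyeball, and the other was the toe-lifting extensor digitorum longus of the hindlimb (EDL). Each was taken from rats aged 6, 18 and 30 months, with 4 arrays in each of the 6 groups. The labels give no strain, sex or treatment for any group. Each array measured RNA pooled from the tissue of 4 animals, per the series' design text, so the spread is that between pools, and levels of single animals were not measured. Values are MAS 5.0 signals in arbitrary units, 1 per probe set and array.

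Tissue kallikrein, the product of Klk1, is a serine protease that cuts kininogen to release kinins, small peptides that widen blood vessels through the bradykinin receptors. It is abundant in salivary gland, pancreas and kidney, and the kallikrein and kinin system has also been described in skeletal muscle. Spt1 stands for salivary protein 1. Rat Smr3b has Vcsa1 and Smr1 among its RefSeq synonyms, names of the androgen-regulated submandibular gland gene whose protein is the source of sialorphin, a peptide that inhibits the enzymes that break down enkephalins. In RefSeq's gene order Klk1 lies on chromosome 1 among its own relatives, with Klk1c9 and Klk5l2 on either side. Spt1 lies on chromosome 7 near the mucin-like genes Mucl1 and Mucl2, and Smr3b on chromosome 14 next to Vcsa2 and Oprpn.

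The regions around the annotated starts of Klk1 and Spt1 are shown because these genes carry the differences described here, and that of Pip because it followed Spt1 from array to array. All are RefSeq sequence of build GRCr8, 250 bases before the start and 50 after it, on the gene's own strand: chr1:103778902-103779201 (plus strand), chr7:136918200-136918499 (minus strand) and chr4:71754015-71754314 (plus strand). Capitals mark matches to TATAAA (the core of a TATA box) or to one of its close forms: TATATA, and also TTTAAA.
Klk1: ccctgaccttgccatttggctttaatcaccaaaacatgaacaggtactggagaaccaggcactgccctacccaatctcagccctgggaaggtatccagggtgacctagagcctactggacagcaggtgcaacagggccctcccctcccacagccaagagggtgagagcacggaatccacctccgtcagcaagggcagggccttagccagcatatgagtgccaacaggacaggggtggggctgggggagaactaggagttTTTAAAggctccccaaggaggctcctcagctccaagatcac
Spt1: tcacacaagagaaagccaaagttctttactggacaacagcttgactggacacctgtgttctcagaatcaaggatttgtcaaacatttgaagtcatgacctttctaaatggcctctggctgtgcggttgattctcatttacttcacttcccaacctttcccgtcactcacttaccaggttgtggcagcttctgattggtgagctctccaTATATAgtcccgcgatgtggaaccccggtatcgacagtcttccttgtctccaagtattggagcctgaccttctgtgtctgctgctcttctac
Pip: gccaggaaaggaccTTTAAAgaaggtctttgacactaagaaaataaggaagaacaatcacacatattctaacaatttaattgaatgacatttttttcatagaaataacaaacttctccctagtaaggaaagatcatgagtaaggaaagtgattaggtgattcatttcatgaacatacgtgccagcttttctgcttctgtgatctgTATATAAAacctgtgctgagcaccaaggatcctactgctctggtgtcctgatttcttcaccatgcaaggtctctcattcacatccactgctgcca
The TATATA of Spt1 begins 42 bases before its start, and the joined TATATA and TATAAA of Pip begin 45 and 43 bases before. Klk1 holds neither, and its TTTAAA begins at base 10 of the transcript as annotated. Smr3b, whose region is not printed, also holds TATATA, 51 bases before its start. On both strands, 6.15% of all 33469 windows of this length hold TATATA, 14.2% hold TATAAA and 13.6% hold TTTAAA. The letters of an androgen or glucocorticoid receptor half-site, TGTTCT, occur once in Spt1 and once in Pip on the other strand. They do not occur in Klk1 or Smr3b, against 20.7% of windows. CANNTG, the E-box bound by muscle regulators such as MyoD, occurs 3 times in Klk1, 2 times in Spt1, 1 time in Smr3b and 0 times in Pip. Of all windows 72.1% hold it. These are matches of letters, chosen after the sequences were seen.

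The arrays bore out the muscle labels. Myh13, the extraocular myosin heavy chain, averaged 13490 ± 2270, 15630 ± 427 and 15790 ± 3140 in EOM at 6, 18 and 30 months, against 87.45 ± 17.7, 99.02 ± 13.6 and 98.3 ± 73.5 in EDL (SD, n = 4 each). All 7 listed genes of skeletal muscle, among them Ckm, muscle creatine kinase, and Acta1, skeletal actin, exceeded the 40th percentile of their array in every group. The median Spearman correlation of an array with the others of its group was 0.928 to 0.954 for EOM arrays and 0.879 to 0.929 for EDL arrays, with replicate 1 of EDL at 30 months the lowest. The number of arrays limits the precision.

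Klk1 was bright in EOM at every age and in EDL only at 30 months. Its brighter probe set read 2339, 3029, 2158 and 1870.2 on the 4 EOM arrays at 6 months, 2878.8, 3077.9, 1996.4 and 1744.8 at 18 months, and 6242.3, 5483.7, 3934.7 and 3331 at 30 months. In EDL it read 73, 407.2, 144.9 and 24.4 at 6 months, 335.7, 248.5, 250.1 and 29 at 18 months, and 2710.4, 6754.7, 2350.8 and 2219.9 at 30 months. Every EDL array at 30 months lay above every EDL array at the younger ages, and the 2 younger groups overlapped. Because whole muscle was measured, a change in the number of cells that make a transcript and a change in RNA per cell cannot be told apart.

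**Figure D1:**
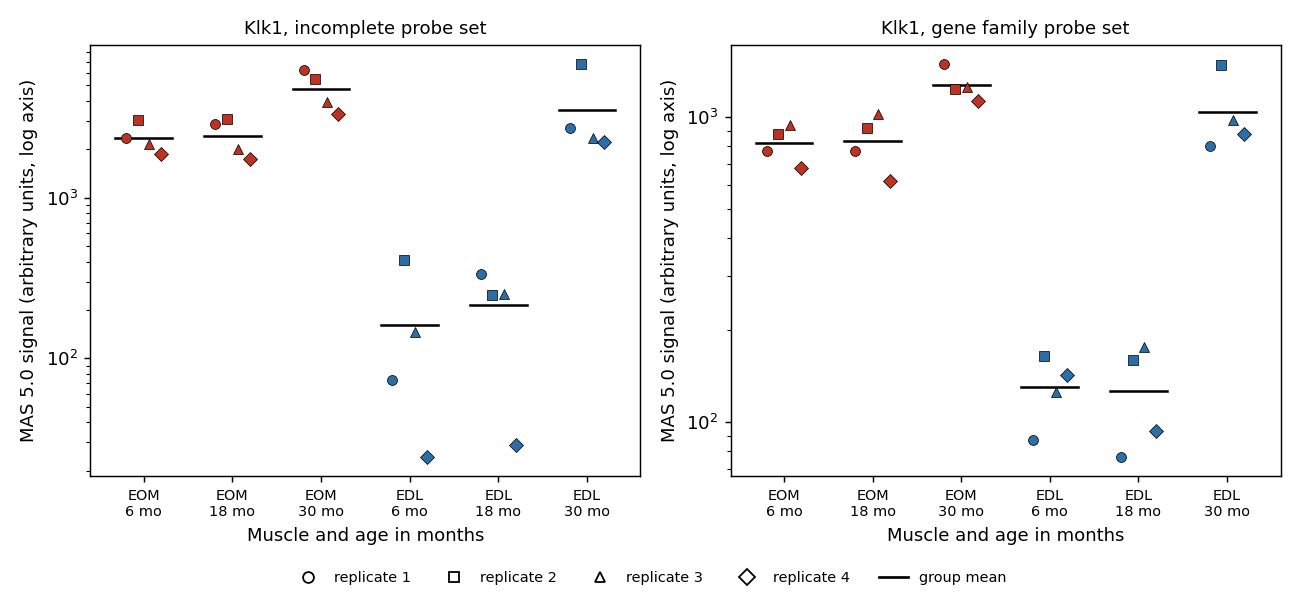
Klk1 signal (arbitrary units, log axis) on each of the 24 arrays, by muscle and age, for its 2 probe sets. Symbols stand for replicate numbers and lines for group means. In both panels the EDL arrays at 30 months reach the range of the EOM arrays, while those at 6 and 18 months lie below it.

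The mean Klk1 signal in EDL was 3509 ± 2170 at 30 months, against 162.4 ± 171 at 6 months, a 30.3-fold difference (log2 4.92, SE 0.64, n = 4 each). Values under a floor were raised to it first. The floor was the 25th percentile of each array, 21.4 to 34.5 units, and 1 EDL array at 6 months and 1 at 18 months lay at it. Folds here compare means of log2 values. Against 18 months the difference in EDL was 19.8-fold (log2 4.31, SE 0.64), and between 18 and 6 months it was 1.53-fold (log2 0.61, SE 0.64), less than its SE. For scale, 2.84% of the 5741 probe sets that passed the filter on low values had all EDL arrays at 30 months above all those at 6 months, and 3.27% above all those at 18 months.

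In EOM the 30-month arrays also lay above the younger ones, by less. The mean was 4748 ± 1350 at 30 months, against 2349 ± 493 at 6 months, a 1.99-fold difference (log2 0.99, SE 0.64), and 2424 ± 653 at 18 months. No array at 30 months overlapped those at 6 or 18 months, which held for 1.36% and 0.801% of probe sets in the upward direction. The EOM change minus the EDL change was log2 -3.93 (SE 0.91). The SE of 0.64 is shared by all 6 groups, which spread unequally. On the brighter probe set the SD of log2 Klk1 was 0.29 to 0.42 among EOM groups. For EDL it was 1.66, 1.62 and 0.75, from the youngest group to the oldest. The SE of 0.64 is thus too wide for differences within EOM and for the gap between the muscles at 30 months. It is too narrow for differences that involve EDL at 6 or 18 months.

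The gap between the muscles was smallest at 30 months. On the brighter probe set Klk1 was 22.4-fold higher in EOM than in EDL at 6 months (log2 4.48, SE 0.64), 14.9-fold at 18 months (log2 3.90, SE 0.64) and 1.47-fold at 30 months (log2 0.56, SE 0.64). On the family probe set it was 6.44-fold, 6.88-fold and 1.26-fold higher at these ages (log2 2.69, 2.78 and 0.34, SE 0.26 each). At 6 and 18 months no EOM array overlapped an EDL array, as for 12.8% and 15.4% of probe sets in that direction, and at 30 months the ranges overlapped. In order of mean signal the groups ran EOM at 30 months, EDL at 30 months, EOM at 18 months, EOM at 6 months, EDL at 18 months and EDL at 6 months. Neighbours in this order overlapped except EOM at 6 months and EDL at 18 months.

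On the brighter probe set replicate 4 was the lowest array in all 6 groups. On the family probe set, described next, replicate 4 was lowest in 3 of them and replicate 1 in the other 3, all EDL. Replicate 2 of EDL at 30 months, at 6754.7, lay far above the other 3 arrays of its group, whose highest was 2710.4. Leaving out each of the 24 arrays in turn kept the EDL difference between 30 and 6 months at log2 4.26 to 5.58 and the EOM difference at 0.85 to 1.15.

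By its suffix, the brighter Klk1 probe set has fewer probes than the design asks for. The dimmer one is marked as reading several members of a gene family. The family probe set read 804.5, 1482.7, 973.5 and 881.5 in EDL at 30 months, against 86.9, 164.3, 125.4 and 142.2 at 6 months, 7.96-fold (log2 2.99, SE 0.26). In EOM it averaged 1275 ± 152 at 30 months, against 819.2 ± 116 at 6 months, 1.56-fold (log2 0.64, SE 0.26). Both Klk1 probe sets thus ran the same way between 30 and 6 months, and on both the EOM and the EDL arrays at 30 months lay wholly above those at 6 months.

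The array holds 9 further probe sets for 7 close relatives of Klk1. Klk1c3, a neighbouring member of the rat tissue kallikrein family, was followed by its own family probe set, which read 202.4, 398.9, 292 and 253.7 in EDL at 30 months, against 88.7, 103.3, 93.7 and 64.6 at 6 months. In EOM it averaged 274.3 ± 36.9, 287.6 ± 46.1 and 367.6 ± 44.4 at 6, 18 and 30 months. Its log2 difference in EDL between 30 and 6 months was 1.69 (SE 0.23, limma adjusted p = 6.23e-05). All 4 arrays at 30 months lay above all 4 at 6 months, as for 2.84% of probe sets. The incomplete probe set of Klk1c3 lay at the floor on 23 of 24 arrays. Which of these near-identical genes a family probe set reads cannot be told apart here. The signal may be that of Klk1, which was chosen with its levels known. The p-values of the family probe sets are thus descriptions and no separate evidence.

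The other relatives were dim. Klk1c2 lay at the floor on 23 of 24 arrays, Klk1c10 on 20 and Klk1b3, a kallikrein that processes nerve growth factor, on 19. Klk1c9, Klk1c12 and Klk1c8 reached at most 173.7, 150.5 and 121.2 units on any array. The brighter probe set of Klk1c12 stood at log2 0.55 in EDL between 30 and 6 months (SE 0.47, limma adjusted p = 0.826), and the dimmer one, also a family probe set, at 1.53 (SE 0.38, limma adjusted p = 0.0282).

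The tested probe sets whose levels ran most like Klk1 across the 12 EDL arrays were those of Acsl4, an enzyme that activates long-chain fatty acids (Pearson r = 0.956, Spearman rho = 0.923), Copz2, a subunit of the coat of transport vesicles (0.95 and 0.909), and Plpp1, a lipid phosphatase (0.95 and 0.923). The remaining places were held by 2 probe sets of Gadd45a, a stress gene (r = 0.94 and 0.936). All these arrays share the split between 30 months and the younger ages, and r includes that split. Over the 8 EDL arrays at 6 and 18 months alone r was 0.868 for Acsl4, 0.863 for Copz2, 0.797 for Plpp1 and 0.774 and 0.966 for Gadd45a. These probe sets were picked by r over arrays that include these 8. The lowest Klk1 values there were replicate 4 at 6 and 18 months, both at the floor. The family probe set of Klk1 read 142.2 and 93.2 on those arrays, not the lowest of either group. Acsl4 averaged 527.9 ± 106 in EDL at 30 months, against 188.5 ± 65.9 at 6 months. In EOM, where Klk1 was bright throughout, Copz2 averaged 289.2 ± 131, 235.8 ± 33.5 and 222.8 ± 35.1 at 6, 18 and 30 months. Across the 12 EOM arrays the closest were Ddrgk1, Ppid, Gadd45a, Atp5if1 and Dcaf6 at r = 0.76 to 0.795, from 4739 probe sets searched. Without the 2 EOM arrays farthest from the median of Klk1, r ran from 0.449 for Gadd45a to 0.757 for Ppid.

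Spt1 had another pattern: it lay near the floor in EDL and ranged over 2 orders of magnitude in EOM. On the 4 EOM arrays it read 603, 823.2, 16578.7 and 5774.6 at 6 months, 161.9, 164.3, 24663.5 and 31848.7 at 18 months, and 160.1, 254.7, 272.7 and 229.2 at 30 months. In EDL it read 15.5, 34.4, 22.6 and 11.9 at 6 months, 24.6, 14.5, 23.4 and 11.5 at 18 months, and 33.6, 22.5, 43.2 and 16.3 at 30 months. Every EOM array lay above every EDL array at each age, as for 12.8%, 15.4% and 11.8% of probe sets at 6, 18 and 30 months. Of the 12 EDL arrays 9 were at the floor. The brightest EOM arrays were replicates 3 and 4 at 6 and at 18 months, and no array at 30 months came near them.

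The group means hide that spread. In EOM they were 5945 ± 7480 at 6 months, 14210 ± 16500 at 18 months and 229.2 ± 49.4 at 30 months (SD, n = 4 each), with medians of 3299, 12410 and 242. At 18 months the 2 dim arrays fell within the range of the 30-month arrays, so only part of that group was bright. All 4 arrays at 30 months lay below all 4 at 6 months, an 11.7-fold difference downward (log2 -3.55, SE 1.24), as for 1.03% of probe sets in that direction. Leaving out each array in turn moved this to between log2 -4.25 and -2.66. Between 18 and 6 months the log2 difference was -0.30 (SE 1.24), far inside its SE.

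Against EDL the Spt1 differences are limited by the floor. At 18 months all 4 EDL arrays were at the floor, and the mean log2 of Spt1 was at least 6.20 higher in EOM (73.4-fold, SE 1.24). That mean joins 2 dim EOM arrays, at 161.9 and 164.3, with 2 bright ones, so it bounds no single array. At 6 months, with 3 of 4 EDL arrays at the floor, the difference was 91.7-fold (log2 6.52, SE 1.24), and at 30 months, with 2 of 4, it was 6.94-fold (log2 2.79, SE 1.24). At 30 months 11.8% of probe sets had all EOM arrays above all EDL arrays. In EDL itself the ages differed by log2 0.18 at most. The SE of 1.24 comes from all 6 groups together and does not measure the EDL spread. The SD of log2 Spt1 was 0.31 to 0.33 in the EDL groups. In EOM it was 2.29, 4.29 and 0.34 at 6, 18 and 30 months. The SE is thus also too wide for the gap at 30 months, and too narrow for every difference that involves EOM at 18 months.

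Pip, prolactin-induced protein, a secreted protein of saliva and tears, was the probe set most like Spt1 across the 12 EOM arrays (r = 0.947, rho = 0.825), of 4740 searched. It read 39.8, 38.4, 2607.1 and 368.4 in EOM at 6 months, 13.3, 79.5, 3294.3 and 3572.6 at 18 months, and 30.3, 33.4, 79.6 and 64.7 at 30 months. In EDL it lay between 18.1 and 80.8 on all arrays. The same 4 EOM arrays were bright for Pip and for Spt1, and the remaining 8 were dim for Pip. Because the arrays fall into a bright and a dim set, r mainly measures that both genes split them alike, and without the 2 arrays farthest from the median of Spt1 it was 0.887.

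**Figure D2:**
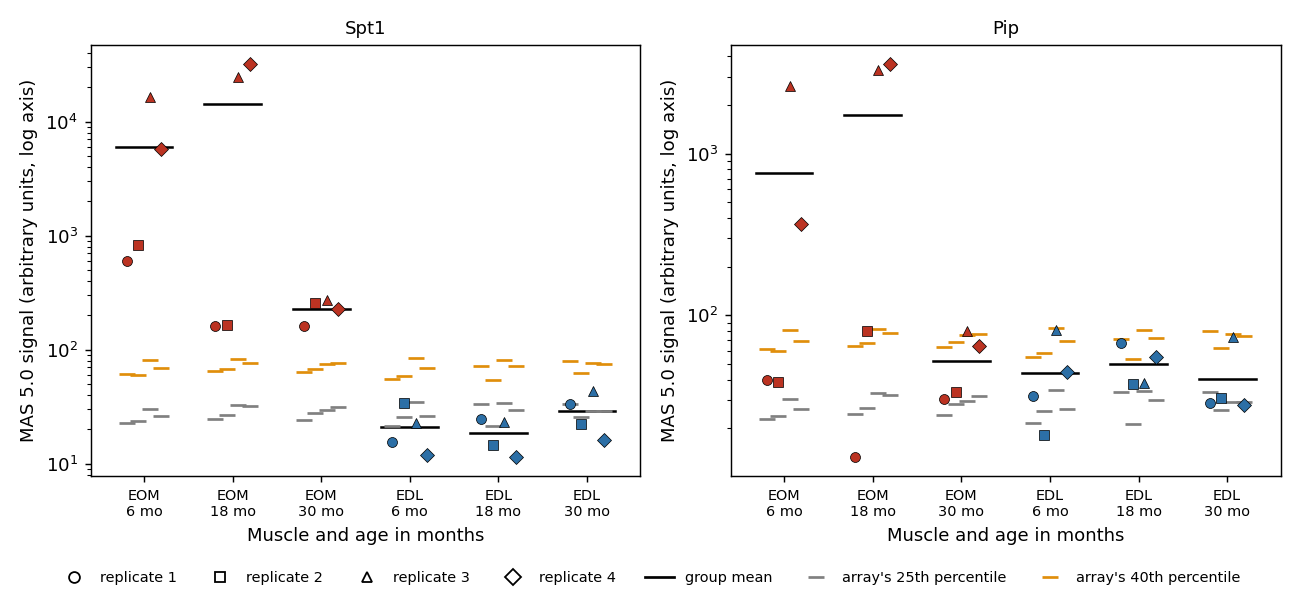
Spt1 (left) and Pip (right) signal (arbitrary units, log axes of different range) on each array, by muscle and age. Symbols are replicates, black lines group means, and grey and orange dashes the 25th and 40th percentile of the same array. Replicates 3 and 4 of EOM at 6 and 18 months stand above all other arrays in both panels.

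The next probe sets, those of App, the amyloid precursor protein, Furin, a protease of the secretory pathway, Nup107, a nuclear pore protein, and a second one of App, had r = 0.819 to 0.857. Their levels moved little beside those of Spt1 and Pip. Furin, for one, averaged 763.2 ± 111, 800.2 ± 167 and 661.1 ± 79.1 in EOM at 6, 18 and 30 months. The 4 bright arrays for Spt1 share their replicate numbers, and arrays of the same number deviated together to some degree over all probe sets (median correlation 0.284 for the same number and -0.117 for different numbers). The labels do not say what the numbers stand for, and their part in the Spt1 levels was not tested.

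Klk1 gave no single picture on the 4 EOM arrays where Spt1 was brightest. There its brighter probe set read 2158, 1870.2, 1996.4 and 1744.8, the 2 lowest arrays of each group. Its family probe set read 943.3, 680.4, 1020.7 and 618.2, the highest and the lowest array of each group. At 30 months both Klk1 probe sets had their highest EOM mean and Spt1 its lowest.

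Smr3b was dim everywhere and did not differ between groups beyond its spread. It read 76, 14.8, 113.1 and 102 on the EOM arrays at 6 months, 53, 28.6, 151 and 135.2 at 18 months, and 64.6, 80.8, 89.3 and 122.4 at 30 months. In EDL it read 69.1, 111, 108.8 and 86.1 at 6 months, 128.2, 46.5, 123.1 and 84.9 at 18 months, and 145.7, 18.9, 20.6 and 92.8 at 30 months. All 6 groups overlapped, no array exceeded 151 units, 3 of 24 arrays were at the floor and 18 exceeded the 40th percentile of their array. The separation of muscles or ages seen for Klk1 and Spt1 was not seen for Smr3b. Within EOM at 6 and 18 months replicates 3 and 4, bright for Spt1, were also its 2 highest arrays, as for 12.5% of all tested probe sets at both ages.

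**Figure D3:**
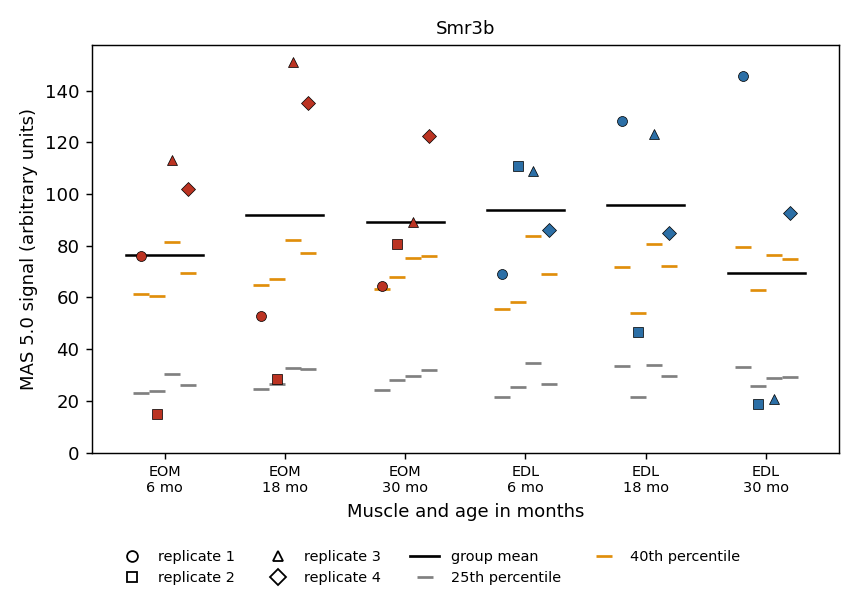
Smr3b signal (arbitrary units, linear axis from 0) on each array, by muscle and age. Symbols are replicates, black lines group means, and grey and orange dashes the 25th and 40th percentile of the same array. The groups overlap throughout, and some arrays lie at or below their 25th percentile.

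Between EOM and EDL the log2 difference of Smr3b was -0.44, -0.25 and 0.62 at 6, 18 and 30 months (SE 0.57 each). The largest age difference was in EDL, log2 -0.71 between 30 and 6 months (SE 0.57), where leaving out single arrays gave -1.16 to -0.33. Across the 24 arrays the log2 signal of Smr3b correlated with the median signal of the array at r = 0.464, against 0.12 for Klk1 and 0.348 for Spt1, given as a description of dim signal. The probe sets most like it over the EOM arrays were those of Fdft1, Foxe1, Pou3f2, Ins2 and Zp1 (r = 0.904 to 0.956). Over the EDL arrays they were those of Trpv1, Akr1c3, Sod2, Pstpip1 and Nfyb (r = 0.826 to 0.909). Without the 2 arrays farthest from the median of Smr3b, r was 0.78 to 0.975 in EOM. In EDL it was then 0.719, 0.808, 0.57, 0.601 and 0.306 in the order named, so these r rest partly on few arrays of a dim signal.

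Other secreted proteins of glands were mostly dim in both muscles. Of 33 listed genes on the array 13 passed the filter on low values, that is, exceeded the 40th percentile on at least 3 of the 4 arrays of some group, and 20 did not. Of these 13, 5 were higher in EOM over the mean of the ages and 0 were lower, at an adjusted p under 0.05 in limma, a linear model over all probe sets. That is 38.5%, against 42.3% of all probe sets called in either direction and 22.3% called higher. The 5 were Pip (log2 1.86, SE 0.71, adjusted p = 0.0392), Klk1c3 (1.22, SE 0.13, adjusted p = 5.01e-08), Klk1c8 (0.90, SE 0.26, adjusted p = 0.00798), Egf, epidermal growth factor (0.80, SE 0.25, adjusted p = 0.0113), and Klk1c12 (0.77, SE 0.27, adjusted p = 0.0246). The list's median was log2 0.29, against -0.06 over all probe sets. Pip and Klk1c8 passed the filter only through an EOM group, so 2 of these 5 entered the test through the muscle where they were higher. Klk1c3, Klk1c12 and Klk1 are read by family probe sets, and these counts may hold 1 signal more than once. That signal may be that of Klk1, so the p-values of Klk1c3 and Klk1c12 are descriptions.

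Of the 20 secreted gland proteins that did not pass the filter, 3 exceeded 100 units on some array: Scgb2a1, Smr3a and Vcsa2. Scgb2a1, a secretoglobin, read 1.5, 1.6, 497.2 and 44.7 in EOM at 6 months, 1.4, 1, 153.4 and 4.4 at 18 months, and at most 3.2 at 30 months, with at most 7.4 in EDL. Smr3a, the close relative and chromosomal neighbour of Smr3b, read 10.3, 11.9, 57.4 and 8.6 in EOM at 6 months, 10.5, 13.9, 240.7 and 254.9 at 18 months, and 8.1, 33.7, 14 and 19.6 at 30 months. In EDL it reached at most 66.1 units. The arrays where these genes stood out were thus among the 4 that were bright for Spt1 and Pip. Vcsa2 reached 102.7 units, on an EDL array at 18 months. Among the other 17, Scgb1d2, another secretoglobin, reached at most 29.9 units, Bpifa2, the parotid secretory protein, 32.2, Car6, the secreted carbonic anhydrase of saliva, 42.3, and Obp2b, an odorant-binding protein, 78.2. None of these 4 exceeded the 40th percentile on any array. The call of Pip, in the test of EOM against EDL, lay near the threshold and was lost in 15 of 32 alternatives (adjusted p = 0.00516 to 0.0802), among them leaving out any 1 of the 4 bright EOM arrays and leaving out several dim arrays of either muscle.

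Whole muscle was measured, so cells other than gland cells may have made the transcripts listed for gland epithelium and acinar cells. Of 14 tested genes of that list, 10 were higher in EOM over the mean of the ages (71.4%, against 22.3% of all probe sets). In the other direction 1 was lower (20% of all probe sets), and the median was log2 0.78. Of the 10, 5 passed the filter only through EOM groups, among them Krt19 and Epcam, and so had to be higher there to be tested. The 3 with the largest differences were Krt19, a keratin of duct epithelium (log2 2.55, SE 0.21, adjusted p = 5.73e-10), Epcam, an epithelial adhesion molecule (2.38, SE 0.27, adjusted p = 1.12e-07), and Cldn3, a tight junction protein (2.23, SE 0.24, adjusted p = 3.6e-08). Slc12a2, the chloride importer of secreting cells, was lower (-0.53, SE 0.14, adjusted p = 0.00303). Aqp5, the water channel of secreting acinar cells, was higher (0.66, SE 0.17, adjusted p = 0.00303).

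**Figure D4:**
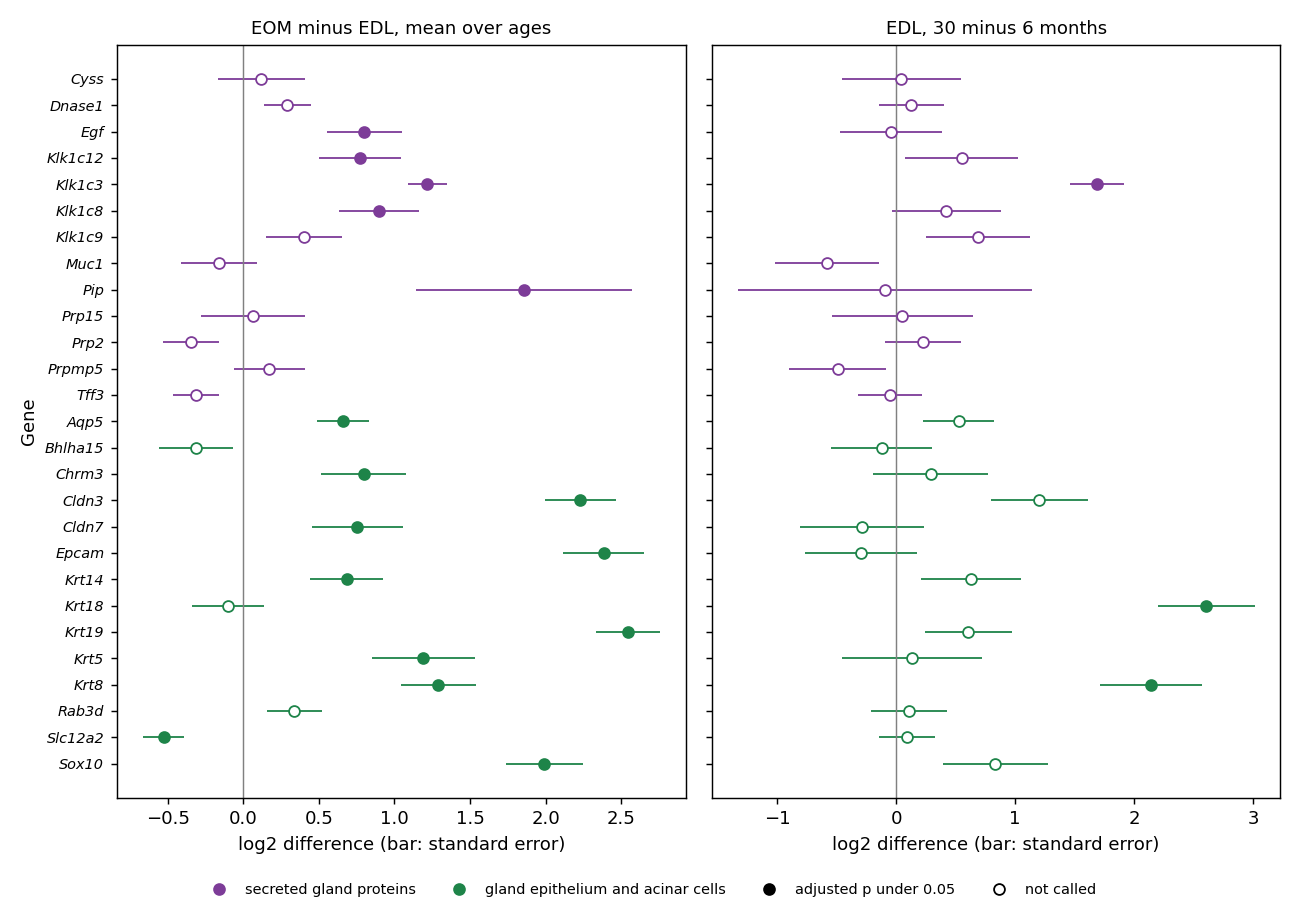
Log2 difference of each tested gene of the lists of secreted gland proteins (purple) and gland epithelium (green), for EOM minus EDL over the mean of the ages (left) and EDL at 30 minus 6 months (right). Bars are standard errors and filled points passed an adjusted p under 0.05 in limma. On the left 15 genes are called higher and 1 lower, on the right Klk1c3, Krt18 and Krt8 are called higher. The family probe sets of Klk1c3 and Klk1c12 may also read Klk1.

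Within EOM the epithelial markers were uneven across replicates. Epcam read 232.9, 194, 484.1 and 428 in EOM at 6 months, 88.3, 123.6, 198.1 and 151.8 at 18 months, and 83.5, 244.8, 391.9 and 744 at 30 months. Krt8, a keratin of simple epithelia, read 111.3, 89.3, 238.2 and 197.5 at 6 months, 45.5, 46.6, 101 and 88.3 at 18 months, and 81.6, 189.2, 193.9 and 305.2 at 30 months. At 6 and 18 months replicates 3 and 4, where Spt1 was bright, were the 2 highest arrays of their group for both genes, and at 30 months they were so again, while Spt1 was low on all 4 arrays. Of the 14 tested epithelial genes this order held for 9 at 6 months, 8 at 18 months, 5 at both and 10 at 30 months, against 25.8%, 28.9%, 12.5% and 26.2% of all tested probe sets. Krt19 did not follow it, with 228.5, 183.9, 159.6 and 270.3 at 6 months and 151, 146.5, 178.3 and 139.2 at 18 months. The summed signal of the 16 epithelial genes on the array was 2190.2 to 4006.6, 1815.1 to 2706.8 and 1946.1 to 4577 on the EOM arrays at these ages, so the 3 ages overlapped. The summed signal of the 33 secreted gland proteins, Pip among them, reached 5731 and 6938.3 at 6 and 18 months, against at most 2734.3 at 30 months. The part of gland tissue in the EOM levels of Spt1 and Klk1 was not tested.

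In EDL between 30 and 6 months Klk1 was joined by few listed genes. Among epithelial genes Krt8 and its partner keratin Krt18 rose and none fell, 2 of 14 (14.3%, against 1.48% of all probe sets called higher). Krt18 passed the filter only through EDL at 30 months, so it was tested because of the group where it was high, and the count is given as a description. Krt18 read 198.2, 255.3, 139.3 and 98.6 at 30 months, against 3.4, 4.9, 35 and 2.8 at 6 months (log2 2.60, SE 0.41, adjusted p = 0.000354), with 18 months between 2.5 and 13.4. Krt8 read 204.3, 136.5, 87.9 and 88.6 at 30 months, against 10.3, 7.7, 39.5 and 18.7 at 6 months (log2 2.14, SE 0.43, adjusted p = 0.00548). The call of Krt8 was lost with the floor at the 40th percentile (adjusted p = 0.316). No array of either gene at 30 months overlapped those at 6 months, as for 2.84% of probe sets in the upward direction. The summed signal of the 16 epithelial genes was 1936.4 to 2438.3 in EDL at 30 months, against 1411.2 to 1816.2 at 6 months. At 18 months it was 1550.4 to 2168.5, which overlapped both. Slc12a2 alone averaged 882.5, 1051 and 950.5 in EDL at 6, 18 and 30 months, a large part of these sums.

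The other 12 tested epithelial genes were not called in EDL. Most had positive log2 differences, and those of Epcam, Cldn7 and Bhlha15 were negative. The list's median was log2 0.41, against 0.03 over all probe sets. Cldn3 stood at 1.20 (SE 0.41, limma adjusted p = 0.18), with an unadjusted p under 0.05. Epcam read 51.2, 7.7, 18.5 and 43.8 at 30 months, against 39.2, 39.6, 33.7 and 71.1 at 6 months, and Krt19 98.6, 32.1, 9.8 and 9.5, against 14.9, 16.5, 6.3 and 13.1. Their log2 differences were -0.30 (SE 0.47, adjusted p = 0.946) and 0.60 (SE 0.36, adjusted p = 0.642). Among the 13 secreted gland proteins 1 was called in EDL, the Klk1c3 family probe set, which may read Klk1 as well. The differences between the change in EOM and the change in EDL did not pass for Krt18 (log2 -2.38, adjusted p = 0.115), Klk1c3 (-1.26, adjusted p = 0.153) or Krt8 (-1.90, adjusted p = 0.443), against 0.192% of all probe sets that passed.

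In EOM between 30 and 6 months, limma called 2 of 5741 probe sets (0.0348%), and 0 genes of the secreted, epithelial or kinin lists. At an unadjusted p under 0.05 the counts in the 3 lists were also 0.

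Of the 9 tested genes of the kallikrein and kinin system, 4 were higher in EOM over the mean of the ages and 1 was lower (55.6% called, against 42.3% of all probe sets). The higher ones were peptidases: Anpep, aminopeptidase N (log2 3.47, SE 0.19, adjusted p = 3.23e-13), Dpp4, dipeptidyl peptidase 4, tested only through EOM groups (1.74, SE 0.25, adjusted p = 5.02e-06), Ace, the angiotensin-converting enzyme, which also breaks down bradykinin (1.30, SE 0.17, adjusted p = 8.03e-07), and Cpe, carboxypeptidase E (0.45, SE 0.13, adjusted p = 0.0063). The other 2 tested probe sets of Anpep were not called. Kng2, a kininogen, the source of the kinins, was lower (-0.86, SE 0.30, adjusted p = 0.0252). Mme, neprilysin, which sialorphin inhibits, stood at 0.43 (SE 0.24, adjusted p = 0.16), and Bdkrb1, a bradykinin receptor, at 0.17 (SE 0.30, adjusted p = 0.674). In EDL between 30 and 6 months 0 of the 9 were called in limma, and 0 had an unadjusted p under 0.05.

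Markers of pancreas and retina were similar in both muscles. The summed signal of 16 genes of pancreatic acinar cells, another kallikrein-rich gland, was 883 to 1102.1, 1051.3 to 1523.7 and 1101.6 to 1358.6 on EOM arrays at 6, 18 and 30 months, against 1073.7 to 1192, 1006 to 1469.6 and 989.9 to 1305.7 on EDL arrays. Of 7 retina genes only Sag was on the array, and its brighter probe set lay between 13.3 and 98.4 units on all arrays.

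The lipid synthesis genes Fasn, Acly and Scd, which lipid-secreting glands also use, were bright in EOM. Fasn averaged 2313 ± 649, 855.5 ± 153 and 1938 ± 1010 in EOM at 6, 18 and 30 months, against 199.3 ± 74.6, 199.8 ± 79.3 and 171.7 ± 97.6 in EDL. Acly averaged 7116 ± 1090, 3416 ± 737 and 5708 ± 2580 in EOM, against 707.8 ± 162, 530.6 ± 189 and 537.4 ± 145 in EDL. Both were thus several-fold brighter in EOM and had their lowest EOM mean at 18 months. Scd averaged 1647 ± 403, 1447 ± 95.4 and 1691 ± 359 in EOM, against 216.8 ± 153, 223.8 ± 53.6 and 712.6 ± 302 in EDL, where its mean was highest at 30 months.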

How the data were processed

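Per the submitters' processing notes (MAS5) and the series' design text, the authors derived each value, a linear intensity in arbitrary units, from Rat Genome U34 arrays with Affymetrix Microarray Suite 5.0. Scanner files and detection calls were not part of this work, and no source used here gives a genome build for the probes. Although the labels list more than 1 dye, each array has a single value per probe set and was handled as a 1-colour array, with no further scaling.

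Of 8799 probe sets 59 controls were removed. Values under the 25th percentile of their array were set to it and log2 was taken. Probe sets above the 40th percentile of their array, 53.8 to 83.8 units, on at least 3 of 4 arrays of a group were tested (5741). limma 3.58.1 (R 4.3.3) then estimated 1 mean per group from the 24 arrays together, with 18 residual degrees of freedom, an intensity trend and Benjamini-Hochberg adjustment over all tested probe sets. EDL and EOM share 1 estimate of the spread, although EDL arrays varied more by their correlations within groups. For Spt1 the reverse held, and EOM varied more. Where a listed gene had several probe sets, the one with the highest mean stood for it. Probe sets were named where the platform annotation gives 1 symbol: 7006 had 1, 308 several and 1426 none. The script was tested on simulated data.

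The genes and lists were chosen with earlier results of these data known. Named besides the 3 genes are the 5 tested probe sets closest to each by Pearson r in each muscle (for Spt1, dim in EDL, in EOM alone), the called genes of each list (the 3 with the largest change in each direction where a list had more than 6) and genes that check the labels. Further genes were named after their values were seen, such as Aqp5, Scgb2a1, Smr3a, Vcsa2, Scgb1d2, Bpifa2, Car6, Obp2b, Mme and Bdkrb1. So were the kallikrein relatives and, in EDL, Krt19, Cldn3, Cldn7 and Bhlha15. None of the 6 listed IgA plasma cell genes had a probe set. Sequences and gene order are from RefSeq, build GRCr8, where all 3 genes were matched by Entrez identifier. Alternatives were the floor, scaling, filter, replicate block, trend, fit per muscle, choice of probe set and leaving out each array.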

Additional observations from a re-analysis of the deposited data

Results flagged for a closer look

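Of 72 sets of 4 arrays looked at (the probe sets of the 3 genes, and Pip, Scgb2a1, Smr3a, Epcam, Krt8, Krt18, Krt19 and the Klk1c3 family probe set, in each group), 11 held an array far from the others of its group. For independent, normally distributed values chance would flag about 1 in 20 such sets. These signals are linear and the sets share arrays, so that share is only a rough scale. All 11 far arrays were the highest of their set. Klk1 on its brighter probe set stood at 6754.7 in replicate 2 of EDL at 30 months, against 2710.4 in the next array. In replicate 3 of EOM at 6 months Pip stood at 2607.1, Scgb2a1 at 497.2 and Smr3a at 57.4, against 368.4, 44.7 and 11.9 in the next arrays. In replicate 3 of EOM at 18 months Scgb2a1 stood at 153.4, against 4.4 in the next. The Klk1c3 family probe set stood at 433.8 in replicate 1 of EOM at 30 months, against 349.6 in the next, and at 119.8 in replicate 3 of EDL at 18 months, against 89.3. The other 4 were dim signals in EDL: Pip at 73.8 in replicate 3 at 30 months, Epcam at 71.1 in replicate 4 at 6 months, Krt8 at 58.9 in replicate 4 at 18 months and Krt18 at 35 in replicate 3 at 6 months. Their causes were not tested.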

How the results depend on the processing

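The 9 log2 differences of Klk1, Spt1 and Smr3b (EOM against EDL over the mean of the ages, and 30 against 6 months in each muscle) moved by less than the spread between replicates in all alternatives run. That limit was each gene's own spread within groups, which is wide for Spt1. Leaving out 1 of 4 arrays could hardly pass it, so for those fits the result says little. Of the counts, 392 recomputed values stayed within 1.5 times the main one and 21 did not. Probe sets called in EOM between 30 and 6 months, 2 in the main fit, were 0 with the floor at the 10th percentile, 1 without a floor, 1 after quantile normalization, 1 after median centring, 1 with the filter at the 60th percentile, and 0 to 3 with single arrays left out. Those in EDL, 107 in the main fit, were 172 with the replicate block, 55 with EDL arrays alone, and 65 (without replicate 1 at 30 months) to 159 with single arrays left out. For EOM against EDL the called genes were 3 of 13 secreted proteins with the floor at the 40th percentile, and with the filter at the 60th percentile 1 of 4 secreted, 6 of 6 epithelial and 3 of 4 kinin genes, where fewer genes were tested. For EDL between 30 and 6 months they were 1 epithelial gene with that floor and 0 of 6 with that filter, and 2 secreted proteins (with Klk1c12) when any probe set of a gene counted. Called list genes were also recomputed one by one, chosen after the data were seen: 741 values kept the call, 41 lost it and none changed sign.

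The numbers 1 to 4 are shared by all groups, but the labels do not say what they mean. Deviations of same-numbered arrays correlated at -0.01 to 0.53 (over 0.1 in 53 of 60 pairs), and 22 of 24 arrays correlated best with their own number. The replicate block changed no other count by over 1.5 times. Signals near the floor limit what can be said of Smr3b, of Spt1 in EDL and of most kallikrein relatives.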
